A study of Mus musculus with 48 samples.

Results

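Messenger RNA of 10 genes of the LIF-STAT3 pathway was followed through 28 RNA-seq libraries and 4 Ribo-seq libraries of mouse embryonic stem (ES) cells. The 10 genes, of 55335 in the tables, were chosen by name, with their CHX effects in earlier results of these data in view: the feedback inhibitors Socs3, Socs1 and Socs2, the receptor chains Lifr and Il6st, the transcription factor Stat3, the receptor-bound kinases Jak1 and Jak2, and the target kinases Pim1 and Pim3. All 10 had reads in every library and were tested in every comparison.

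LIF is the cytokine that keeps mouse ES cells undifferentiated in culture. It joins the chains LIFR and IL6ST in one receptor, the JAK kinases bound to these chains phosphorylate STAT3, and STAT3 enters the nucleus and switches on its targets. One of those targets is Socs3, whose short-lived protein binds IL6ST and the JAKs and shuts the signal off, so that a cell that cannot make new SOCS3 protein loses this brake. Cycloheximide (CHX) stops translation, and it also stabilizes many short-lived mRNAs.

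All cells were male hybrid 129-C57BL/6 ES cells, kept in serum with LIF and 2i (inhibitors of GSK-3 and MEK), with 2 libraries per group. Nrde2-KO and Mtrex-KO cells lost a floxed gene through Cre-ERT2 made from the Rosa26 locus, after 100 nM 4OHT for 4 days (Nrde2) or 3 days (Mtrex), and their WT controls were the same conditional cells without 4OHT. In Ccdc174-depleted cells CCDC174 was fused to FKBP12F36V and degraded with 500 nM dTAG-13 for 24 h, and their WT controls carried the fusion without the compound. Nrde2d200 cells (the first 200 amino acids of NRDE2 deleted) and Nrde2D174R cells (a point mutation) were edited clones that received no 4OHT and shared the Nrde2-WT libraries of the first experiment. A second Nrde2 experiment and the Ccdc174 experiment each had libraries without CHX and with 0.1 mg/ml CHX for 4 h. The labels name no first or second experiment. Here the second is the set of Nrde2 libraries labelled as untreated or CHX-treated, and the first is the set without such a label. Ribo-seq compared Nrde2-WT with Nrde2-KO cells. Loss of the gene and exposure to 4OHT or dTAG-13 cannot be told apart in these pairs, and in bulk samples fewer cells of a type and less RNA per cell cannot be told apart either. NRDE2 and CCDC174 are splicing factors that act at weak 5′ splice sites, and MTREX is the helicase of the nuclear RNA exosome.

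Reads in genes ran from 28683644 to 36272309 per RNA-seq library and from 3475051 to 5035940 per Ribo-seq library. In the first experiment Nrde2 mRNA was 41.6 and 40.5 CPM (read counts scaled to library size, here also scaled between libraries) in Nrde2-WT and 19.3 and 20.4 in Nrde2-KO. In the second experiment it was 2.66-fold lower in Nrde2-KO without CHX. With CHX it was 226 to 244 CPM in WT and 250 to 259 in KO cells of that experiment, so that there the level of the gene did not show the knockout. Mtrex fell from 112 to 119 CPM in WT cells to 41.6 to 46.4 in Mtrex-KO. Ccdc174 mRNA was not lowered by dTAG-13, which acts on the protein. The 10 ES cell markers were present in every library, their sum being 4464 to 4951 CPM in Nrde2-WT against 3504 to 3997 in Nrde2-KO, and 4716 to 5119 in Mtrex-WT against 3099 to 4022 in Mtrex-KO. The 6 markers of primitive endoderm, none of them at 0, summed to 13.6 to 13.7 against 21.8 to 24.4 CPM and to 11.4 to 12.2 against 19.3 to 20.1 CPM in the same pairs. The 6 trophectoderm markers, also none at 0, summed to 30.5 to 33.3 CPM in Mtrex-WT and 45.2 to 66.4 in Mtrex-KO. In Nrde2-WT and Nrde2-KO their sums overlapped, at 26.0 to 30.9 and 25.3 to 27.1 CPM. The 6 neurectoderm markers were lower in Mtrex-KO, at 31.1 to 36.9 against 67.7 to 79.6 CPM. In the second Nrde2 experiment the ES cell markers summed to 4992 to 5037 CPM in WT and 4599 to 4661 in KO cells. With CHX these sums were 3651 to 3675 and 3027 to 3064. The part of these markers in the results below was not tested. Mtrex-KO replicate 1 stood apart, with 72.1% of its total in genes. The next lowest RNA-seq library, Mtrex-KO replicate 2, had 82.7%, and the highest, a library with CHX, had 92.1%. The Mtrex-KO differences with a printed SE are therefore also given without Mtrex-KO replicate 1.

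Per kilobase of exon, Pim3, Socs3 and Pim1 were the most abundant of the 10 in the 8 WT libraries without CHX, with medians of 40.3, 31.5 and 29.3 CPM per kb. The ranges of these neighbours overlapped (Pim3 26.8 to 51.6, Socs3 20.1 to 39.6, Pim1 23.3 to 32.2). Next came Jak1 with 14.3, Stat3 with 12.7, Lifr with 9.51 and Il6st with 9.29, and the ranges of Jak1 and Stat3, and of Lifr and Il6st, overlapped too. Jak2 at 3.76, Socs2 at 3.17 and Socs1 at 0.519 were the lowest, the ranges of Jak2 (2.42 to 4.10) and Socs2 (2.84 to 4.17) overlapping and that of Socs1 (0.353 to 0.818) lying below both. Over the 14 RNA-seq groups the mean level of Socs3 varied most of the 10, 9.75-fold from Nrde2-KO to Ccdc174-WT with CHX, followed by Pim1 with 6.05-fold and Lifr with 4.27-fold. Jak1 varied 1.80-fold.

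Socs3 lies on the minus strand of chromosome 11 (chr11:117966079-117970047, mm10) and has 2 exons. STAT dimers are known to bind the palindrome TTCNNNGAA. In the 250 bases before the annotated starts, read with GENCODE M21 on both strands (the motif is its own reverse complement), 7.25% of 21883 promoters held a match. Each protein-coding gene was read at the start of 1 transcript. For Socs3 this start lies inside the span of the gene given above, which reaches further upstream through another transcript, and the window before it (chr11:117969187-117969436) held 1 match. It is shown here with 10 bases on each side and the motif in capitals, since Socs3 is the classical STAT3 target and the gene the results below turn on. The match is a description and not evidence of binding.
Socs3, chr11:117969229-117969257, minus strand, 61 bases before that start: ggccgggcagTTCCAGGAAtcggggggcg

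Without CHX, Socs3 mRNA was lower in Nrde2-KO cells. In the first experiment it was 114 and 79.3 CPM in Nrde2-WT and 48.4 and 38.1 CPM in Nrde2-KO, and the groups did not overlap. The log2 difference was -1.16 (SE 0.21, limma adjusted p = 0.000574), a 2.23-fold lower level. It missed the threshold of 0.01 without Nrde2-KO replicate 2 (-0.99, adjusted p = 0.0128) and without Nrde2-WT replicate 1 (-0.89, adjusted p = 0.0171). In the second experiment Socs3 was 96.9 and 94.8 CPM in WT and 69.2 and 62.2 CPM in KO cells, again without overlap, with a log2 difference of -0.55 (SE 0.21, adjusted p = 0.058) that did not pass. This difference passed in a limma fit of the compared groups alone (-0.57, adjusted p = 0.00134) and with a replicate block (limma adjusted p = 0.000481). Whether the size of the Socs3 difference differs between both experiments was not tested.

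The other lines gave smaller Socs3 differences. Nrde2d200 libraries held 94.3 and 65.3 CPM and Nrde2D174R libraries 97.3 and 70.7 CPM, both overlapping with the shared WT. Mtrex-WT libraries held 102 and 87.6 CPM and Mtrex-KO libraries 65.7 and 82.2 CPM (log2 difference -0.38, SE 0.21, limma adjusted p = 0.12), which was -0.20 without Mtrex-KO replicate 1 and -0.55 without Mtrex-KO replicate 2. Ccdc174-WT libraries held 75.8 and 58.2 CPM and depleted libraries 78.3 and 57.5 CPM, which overlapped, a log2 difference of 0.01 (SE 0.21) that ran from -0.21 to 0.23 when 1 library was left out. None of these 4 passed.

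With CHX the lines lay far apart. In WT cells of the second Nrde2 experiment Socs3 went from 96.9 and 94.8 CPM without CHX to 423 and 287 CPM with it, a log2 difference of 1.85 (SE 0.19). In Nrde2-KO cells it was 69.2 and 62.2 CPM without and 64.3 and 51.5 CPM with CHX, and these libraries overlapped (log2 difference -0.22, SE 0.19). Both treated knockout libraries lay below all 4 WT libraries of the experiment.

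In the Ccdc174 line the depleted cells lay between. Ccdc174-WT cells had 75.8 and 58.2 CPM without and 384 and 460 CPM with CHX, a log2 difference of 2.65 (SE 0.19). Depleted cells had 78.3 and 57.5 CPM without and 119 and 151 CPM with CHX, which did not overlap, a log2 difference of 0.97 (SE 0.19). The CHX effect on the log2 scale was thus smaller by 2.07 (-2.07, SE 0.27) after Nrde2 loss and by 1.67 (-1.67, SE 0.27) after CCDC174 loss. The CHX effect in each line is what the set of genes was put together for, so these values are a description without a test. At the thresholds used for the genotypes, 0.152% of all 15133 genes in the Nrde2 line and 0.0595% in the Ccdc174 line would be counted for the difference of CHX effects, and of the 10 genes Socs3 in each, from which nothing is read.

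**Figure D1:**
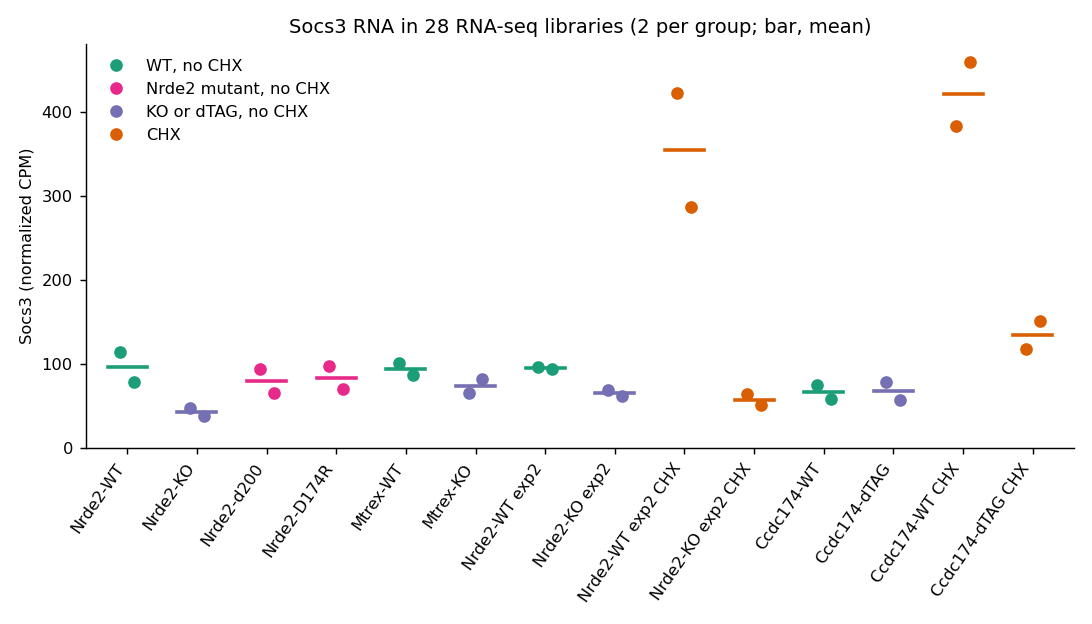
Socs3 level in each of 28 RNA-seq libraries (y axis, normalized CPM) by group (x axis; exp2 is the second Nrde2 experiment, d200 and D174R the Nrde2d200 and Nrde2D174R cells, dTAG the Ccdc174-depleted cells), with 2 points and a bar at their mean for each group. WT groups with CHX lie at 287 to 460 CPM, Ccdc174-depleted cells with CHX at 119 and 151, and Nrde2-KO cells with CHX at 51.5 and 64.3, within the range of the groups without CHX.

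Compared directly under CHX, Socs3 was 6.15-fold lower in Nrde2-KO than in WT cells (log2 difference -2.62, SE 0.18, limma adjusted p = 2.4e-06), and this passed with each library left out. In Ccdc174-depleted cells it was 3.15-fold lower (log2 difference -1.66, SE 0.18, limma adjusted p = 0.000187), which passed with each library left out and missed the threshold only when genes of low level were kept in the test (adjusted p = 0.0121). These tests use the same treated libraries as the CHX effects, around which the genes were put together, and are not independent evidence of them. The tests with CHX of the other genes below have the same limit. In the Ccdc174 line the Socs3 groups overlapped without CHX, so its difference with CHX is nearly the same quantity as its difference of CHX effects. Neither p-value of Socs3 is therefore support for a smaller CHX effect of this gene. Over 2-fold and with an adjusted p below 0.01, 4.66% and 0.976% of 15476 genes were called in these comparisons, and of the 10 genes Socs3 alone was called in either. Nothing is read from this count.

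Ribosome footprints on Socs3 were lower in Nrde2-KO as well. They were 52.1 and 48.2 CPM in WT and 40.3 and 34.2 CPM in KO cells, a log2 difference of -0.43 (SE 0.10, limma adjusted p = 0.0028). It missed the threshold without Nrde2-KO replicate 2 or Nrde2-WT replicate 1 of Ribo-seq, and also on the CPM as deposited, with all genes kept and with DESeq2 (adjusted p 0.0106 to 0.19). The footprint change minus the mRNA change of the first experiment was 0.74 (SE 0.21, limma adjusted p = 0.028) and did not pass. With the mRNA of the second experiment in its place it was 0.14 (adjusted p = 0.559). It was 0.48 (adjusted p = 0.114) without Nrde2-WT replicate 1 of RNA-seq and 1.01 (adjusted p = 0.00286) without Nrde2-WT replicate 2.

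The other feedback inhibitors had smaller CHX effects than Socs3 in Nrde2-WT, Ccdc174-WT and Ccdc174-depleted cells, in value. In Nrde2-KO the effects were -0.62 for Socs1 and 0.31 for Socs2, against -0.22 for Socs3. Socs1, which acts on JAKs directly, was at 0.78 to 2.62 CPM in all RNA-seq libraries (31 to 79 reads), passed in no comparison and was too low for differences of the size seen in Lifr or Stat3 to be measured, its SE being 0.22 to 0.45. Socs2, best known as a brake on growth hormone signalling, was at 30.1 and 39.8 CPM in WT and 28.1 and 33.2 CPM in KO cells without CHX. With CHX it was 51.8 and 50.4 CPM in WT and 37.6 and 40.3 CPM in KO cells, a log2 difference between genotypes of -0.42 (SE 0.06, limma adjusted p = 0.000303) that passed with each library left out. Its CHX effects ran from 0.03 in Ccdc174-depleted cells to 0.55 in Nrde2-WT (SE 0.11). In the other genotype comparisons Socs2 did not pass.

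Both receptor chains were lower in Nrde2-KO cells in both mRNA comparisons without CHX. They were also lower in that with CHX, which has the limit given above for tests with CHX. Lifr, the chain that recognizes LIF, was 119 and 120 CPM in Nrde2-WT and 68.3 and 75.8 CPM in Nrde2-KO, a log2 difference of -0.75 (SE 0.15, limma adjusted p = 0.00096) that missed the threshold without Nrde2-KO replicate 1 (adjusted p = 0.018). In the second experiment Lifr was 95.5 and 128 CPM in WT and 55.9 and 81.8 CPM in KO cells (log2 difference -0.71, SE 0.15, adjusted p = 0.0014), and it missed the threshold without KO replicate 1 or WT replicate 2 (adjusted p = 0.0344 and 0.0397). No KO library reached the WT range in either experiment. With CHX Lifr was 299 and 288 CPM in WT against 182 and 197 CPM in KO cells (log2 difference -0.66, SE 0.07, limma adjusted p = 6.3e-05), which passed with each library left out.

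Il6st encodes the signalling chain shared by the receptors of LIF and IL-6. It was 103 and 104 CPM in Nrde2-WT and 68.8 and 72.8 CPM in Nrde2-KO (log2 difference -0.56, SE 0.10, limma adjusted p = 0.00052, or 0.0108 without Nrde2-KO replicate 1). In the second experiment it was 118 and 123 CPM against 78.2 and 88.1 CPM (-0.54, SE 0.10, adjusted p = 0.00059, or 0.0114 without KO replicate 1). With CHX it was 259 and 251 CPM against 159 and 175 CPM (-0.64, SE 0.06, adjusted p = 1.7e-05), and this passed with each library left out.

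Both receptor chains were higher with CHX in every line. Lifr was higher with CHX by 1.40 in Nrde2-WT, 1.45 in Nrde2-KO, 1.57 in Ccdc174-WT and 1.53 in Ccdc174-depleted cells on the log2 scale (SE 0.15 each). Il6st was higher by 1.07, 0.97, 1.06 and 0.81 in the same order (SE 0.09 each). The CHX effects of KO and WT cells differed by 0.05 for Lifr (SE 0.21) and by -0.10 for Il6st (SE 0.13). Over the 14 group means of log2 level, Lifr and Il6st had the highest correlation of any pair among the 10 genes (Pearson's r = 0.96), where groups share lines, control libraries and the CHX treatment. In Ccdc174-depleted cells with CHX, Il6st was 164 and 170 CPM against 201 and 217 CPM in WT (-0.33, SE 0.06, limma adjusted p = 0.0033), which missed the threshold without either depleted library or without WT replicate 2 (adjusted p up to 0.0315). This difference also missed it with all genes kept (adjusted p = 0.0328).

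Footprints on Lifr and Il6st did not pass between the genotypes. Lifr had 118 and 108 CPM of footprints in WT and 87.6 and 103 CPM in KO cells (log2 difference -0.25, SE 0.09, limma adjusted p = 0.038), and its footprint change minus its mRNA change, 0.51 (adjusted p = 0.0144), did not pass either. Il6st footprints overlapped between the genotypes at 79.1 and 72.2 against 69.1 and 81.5 CPM (-0.01, SE 0.09). The footprint change of Il6st minus its mRNA change was 0.56 (SE 0.13, limma adjusted p = 0.0090), and 7.17% of 12788 genes passed in this comparison. It kept its sign in all alternatives and missed the threshold in 13 of them (adjusted p up to 0.0783), among them the loss of any one library except Nrde2-KO replicate 1 of Ribo-seq.

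Stat3 lies on the minus strand of chromosome 11 as well (chr11:100885098-100939540, mm10) and has 24 exons. The gene Stat5a overlaps Stat3 on the opposite strand. The study's proteins act at weak 5′ splice sites, so the sites of the 10 genes are described, each as the last 3 exon bases in lower case and the first 6 intron bases in capitals. A site was scored by the sum over the 9 positions of the log2 ratio of a base's share at 184538 annotated GT sites to a share of 0.25. The best possible site, cagGTAAGT, scores 13.00, the median site 8.31 and the lowest 10% of sites under 4.91. Of the 116 GT sites of the 10 genes, 14 (12.1%) lay among those lowest sites. Stat3 held 3 of its 22 there, Il6st 4 of 16, Jak1 3 of 22, Jak2 3 of 24 and Socs2 1 of 2, while Socs3, Socs1, Lifr, Pim1 and Pim3 held none. Socs3 has 1 intron, with a site scoring 7.25. The lowest-scoring sites of Stat3 are shown because only 0.0266% and 0.277% of all GT sites scored below the first and second of them.
Stat3 intron 21, chr11:100893068-100893076, score -3.82: gtaGTTGTT
Stat3 intron 17, chr11:100894695-100894703, score -0.66: tagGTTGAC
Stat3 intron 13, chr11:100898602-100898610, score 3.64: ctgGTCGGT
Socs3 intron 1, chr11:117968869-117968877, score 7.25: tagGTAGGA
The annotation also gives intron 21 of Stat3 a second start 3 bases upstream, cagGTAGTT, with a score of 6.88. Stat3 intron 6 and Jak1 introns 13 and 19 begin with GC and were not scored. Whether any of these introns was spliced differently was not tested, since the tables hold reads per gene.

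Stat3 mRNA was lower after loss of either splicing factor. In the first experiment it was 119 and 115 CPM in Nrde2-WT and 87.6 and 89.3 CPM in Nrde2-KO (log2 difference -0.42, SE 0.09, limma adjusted p = 0.0014), which missed the threshold without either KO library or without WT replicate 1 (adjusted p up to 0.0191) and on the CPM as deposited (adjusted p = 0.0291). In the second experiment it was 121 and 139 CPM in WT and 83.7 and 84.5 CPM in KO cells (-0.63, SE 0.09, adjusted p = 3.1e-05), and with CHX 235 and 234 CPM against 162 and 149 CPM (-0.62, SE 0.06, adjusted p = 1.6e-05). Both of these passed with each library left out. The groups overlapped in none of the 3, of which that with CHX has the limit given above for tests with CHX.

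In the Ccdc174 line Stat3 was 157 and 140 CPM in WT and 113 and 99.9 CPM in depleted cells (log2 difference -0.49, SE 0.09, limma adjusted p = 0.00093), which missed the threshold without depleted replicate 2 or WT replicate 1, on the CPM as deposited and in a fit of the compared groups alone (adjusted p 0.0132 to 0.0318). With CHX it was 292 and 309 CPM against 198 and 208 CPM (-0.57, SE 0.06, adjusted p = 0.00011), which passed with each library left out. With CHX the level was higher by 0.84 and 0.85 in Nrde2-WT and Nrde2-KO and by 1.01 and 0.91 in Ccdc174-WT and depleted cells on the log2 scale (SE 0.08 each). Nrde2d200 (120 and 123 CPM) and Nrde2D174R (122 and 121 CPM) lay above both WT libraries by 0.05 and 0.06 on the log2 scale, and neither passed.

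Footprints on Stat3 fell with its mRNA. They were 104 and 111 CPM in WT and 70.3 and 72.2 CPM in KO cells, a log2 difference of -0.59 (SE 0.08, limma adjusted p = 1.3e-05), against -0.42 for mRNA. The footprint change minus the mRNA change was -0.16 (SE 0.10) and did not pass. The footprint difference passed with each library left out but not on the CPM as deposited (adjusted p = 0.0175).

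In Mtrex-KO cells Stat3 was higher, at 163 and 165 CPM against 120 and 118 CPM in Mtrex-WT, a log2 difference of 0.44 (SE 0.09, limma adjusted p = 0.000221), or 0.47 without Mtrex-KO replicate 1. This depends on the scaling between libraries, since on the CPM as deposited it was 0.06 (adjusted p = 0.633), and there the median of all genes moved to -0.38.

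**Figure D2:**
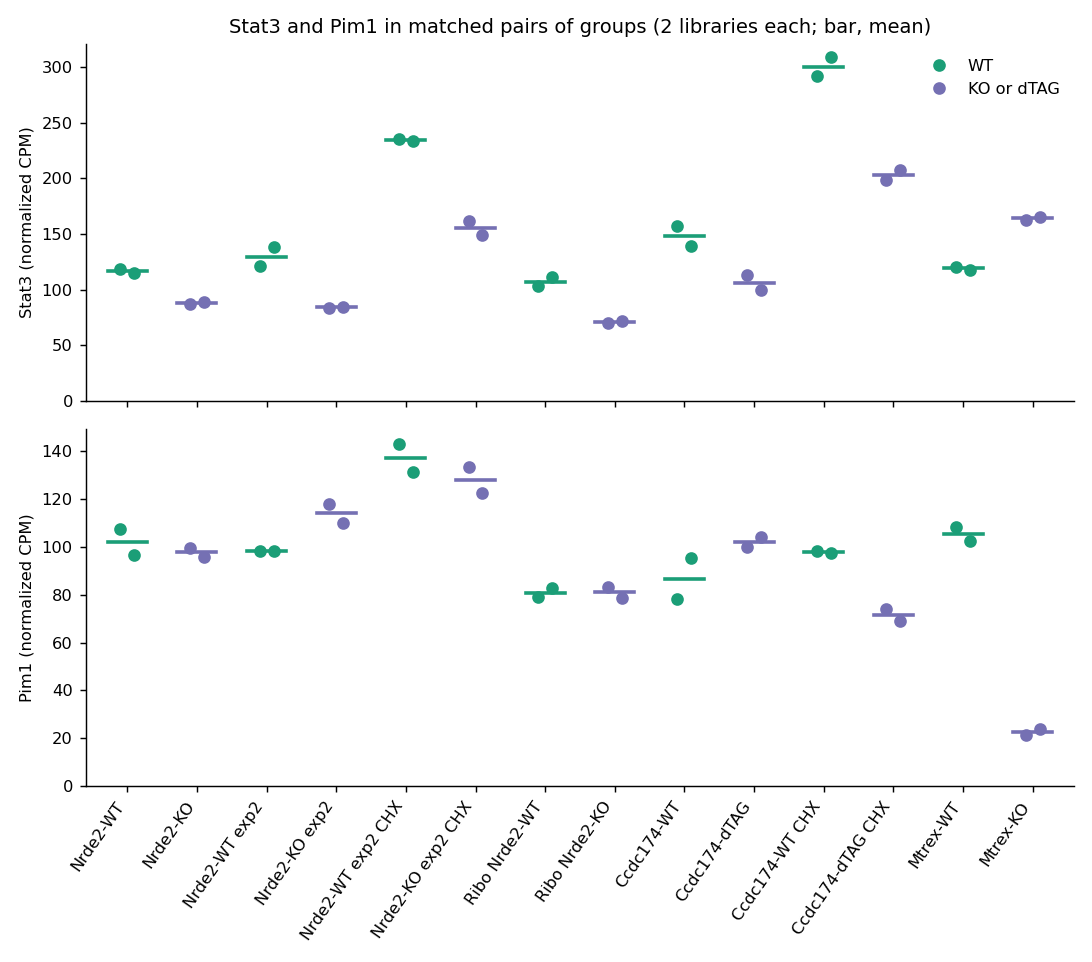
Levels of Stat3 (upper panel) and Pim1 (lower panel) in each library (y axis, normalized CPM) by group (x axis; Ribo marks footprints, exp2 the second Nrde2 experiment, dTAG the Ccdc174-depleted cells), with 2 points and a bar at their mean for each group. Stat3 lies lower in Nrde2-KO and Ccdc174-depleted cells than in their controls with and without CHX, and Pim1 lies lowest in Mtrex-KO at 21.5 and 23.8 CPM.

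The kinases bound to the receptor differed by less than 2-fold between genotypes. Jak1, the main kinase of IL6ST signalling, passed in no genotype comparison, its log2 differences running from -0.21 in Nrde2-KO to 0.15 in Mtrex-KO. Its CHX effects were negative in all lines, -0.46 and -0.32 in Nrde2-WT and Nrde2-KO and -0.44 and -0.48 in Ccdc174-WT and depleted cells (SE 0.09 each; -0.11 to -0.24 on the CPM as deposited). In Nrde2-WT that was 94.9 and 90.5 CPM without and 72.4 and 63.6 CPM with CHX. Jak2 went the other way, from 14.6 and 12.2 CPM to 27.9 and 28.6 CPM in Nrde2-WT, with CHX effects of 1.06, 0.85, 0.99 and 0.58 in the same order (SE 0.12 each). Other genes overlap Jak1 on the opposite strand (Raver2, Gm24468) and on its own (Gm12785).

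Jak2 was lower in Mtrex-KO, at 13.3 and 11.9 CPM against 18.8 and 17.8 CPM (log2 difference -0.55, SE 0.12, limma adjusted p = 0.000777, and -0.61 without Mtrex-KO replicate 1). In Ccdc174-depleted cells with CHX it was 30.8 and 30.3 CPM against 37.8 and 41.9 CPM (-0.39, SE 0.08, adjusted p = 0.0060), which missed the threshold without either depleted library or without WT replicate 2 (adjusted p up to 0.0471). This difference also missed it on the CPM as deposited (adjusted p = 0.0117) and with all genes kept (adjusted p = 0.0398). In Nrde2-KO Jak2 did not pass.

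Pim1, a STAT3 target that promotes survival and growth, was the member most changed without CHX. It was 108 and 103 CPM in Mtrex-WT and 21.5 and 23.8 CPM in Mtrex-KO, a 4.68-fold lower level (log2 difference -2.23, SE 0.10, limma adjusted p = 8.1e-12). It passed with each library left out and was -2.13 without Mtrex-KO replicate 1. In this comparison 26.7% of 14889 genes were called over 2-fold, and of the 10 genes Pim1 alone. The gene Gm26885 overlaps Pim1 on the opposite strand. In Nrde2-KO, Nrde2d200 and Nrde2D174R Pim1 did not pass, and its footprints were 78.9 and 82.9 CPM in WT and 83.1 and 78.8 CPM in KO cells.

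With CHX Pim1 was higher in value in 3 of the lines and lower in Ccdc174-depleted cells. It went from 98.4 in both libraries to 143 and 131 CPM in Nrde2-WT and from 118 and 110 to 133 and 122 CPM in Nrde2-KO. It went from 78.2 and 95.2 to 98.2 and 97.3 CPM in Ccdc174-WT and from 100.0 and 104 to 74.1 and 69.0 CPM in Ccdc174-depleted cells. The CHX effects were thus 0.47, 0.13, 0.17 and -0.53 (SE 0.09 each), and the last differed from that of its WT by -0.70 (SE 0.12). Compared directly with CHX, Pim1 was lower in depleted cells than in WT by 0.46 (-0.46, SE 0.06, limma adjusted p = 0.000842). The adjusted p was 0.0120 without depleted replicate 2 and 0.0168 with all genes kept.

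Pim3, the close relative of Pim1, was 112 and 96.0 CPM in Nrde2-WT and 72.8 and 68.4 CPM in Nrde2-KO (log2 difference -0.57, SE 0.15, limma adjusted p = 0.0073). It missed the threshold without any one of these 4 libraries (adjusted p up to 0.0892). The same held on the CPM as deposited (adjusted p = 0.026) and with all genes kept (adjusted p = 0.0338). In Mtrex-KO it was 53.4 and 59.1 CPM against 99.6 and 80.6 CPM (-0.69, SE 0.15, adjusted p = 0.00049), -0.60 without Mtrex-KO replicate 1, and missed the threshold without Mtrex-WT replicate 1 (adjusted p = 0.0133). With CHX it was 131 and 114 CPM in Nrde2-KO and 162 and 142 CPM in WT cells (-0.34, SE 0.08, adjusted p = 0.0046), which missed the threshold without KO replicate 2 or WT replicate 1. This difference also missed it on the CPM as deposited, with all genes kept and in a fit of the compared groups alone (adjusted p 0.011 to 0.0384). Footprints on Pim3 were 63.0 and 65.5 CPM in WT and 51.2 and 44.4 CPM in KO cells (-0.43, SE 0.10, adjusted p = 0.0014), which missed the threshold without KO replicate 2, on the CPM as deposited, with all genes kept and with DESeq2. Its CHX effects were 0.43, 0.54, 0.63 and 0.22 (SE 0.13 each).

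**Figure D3:**
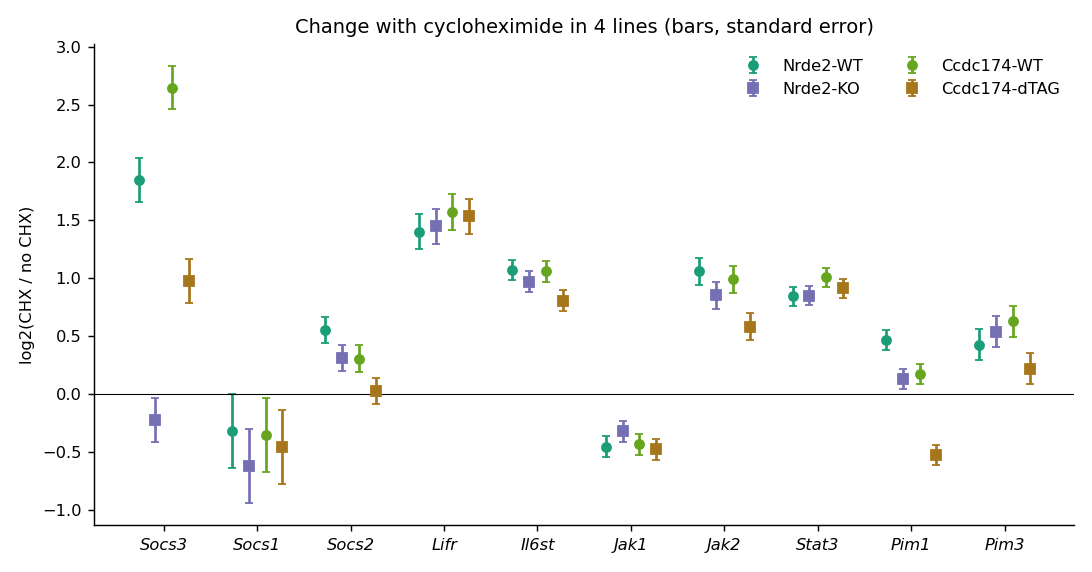
Log2 ratio of the level with CHX to that without (y axis) for the 10 genes (x axis) in Nrde2-WT, Nrde2-KO, Ccdc174-WT and Ccdc174-depleted cells, with bars of 1 SE. For Socs3 the points spread from -0.22 to 2.65, whereas for Lifr they lie between 1.40 and 1.57.

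Counted over the 10 genes, 5 passed in Nrde2-KO without CHX (Socs3, Lifr, Il6st, Stat3, Pim3), all lower, where 11.1% of the 14889 genes tested passed as lower and 5.02% were called over 2-fold in either direction. In the second experiment 3 passed, all lower (Lifr, Il6st, Stat3), beside 11.4% of all genes. With CHX 6 passed, all lower (those 3 with Socs3, Socs2 and Pim3), beside 17.4% of all genes. The median log2 difference of the 10 was -0.43, -0.32 and -0.38 in these comparisons, and that of all genes was -0.01, 0.00 and -0.02. The first 2 comparisons used different libraries, and so did the comparisons of the second experiment without and with CHX. The labels do not say whether the first 2 came from separate experiments. The treated libraries are also those of the CHX effects around which the genes were put together. Nothing is therefore read from the counts with CHX, here and below.

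In Nrde2d200 and Nrde2D174R none of the 10 genes passed, where 7.37% and 0.41% of all genes did. Lifr at -0.40 (limma adjusted p = 0.072) and Il6st at -0.30 (adjusted p = 0.054) in Nrde2d200 were nearest to the threshold, and both passed in a fit of the compared groups alone. In Mtrex-KO 4 passed (Stat3 higher, Pim1, Pim3 and Jak2 lower), beside 56% of all genes. In Ccdc174-depleted cells Stat3 alone passed without CHX, as lower, beside 4.53% of all genes passing as lower and 5.57% in either direction. With CHX 5 passed there, all lower (Socs3, Stat3, Pim1, Il6st, Jak2), beside 6.17% of all genes passing as lower. In Ribo-seq 3 passed, all lower (Stat3, Socs3, Pim3), beside 14.2% of all genes passing as lower and 25.2% in either direction.

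**Figure D4:**
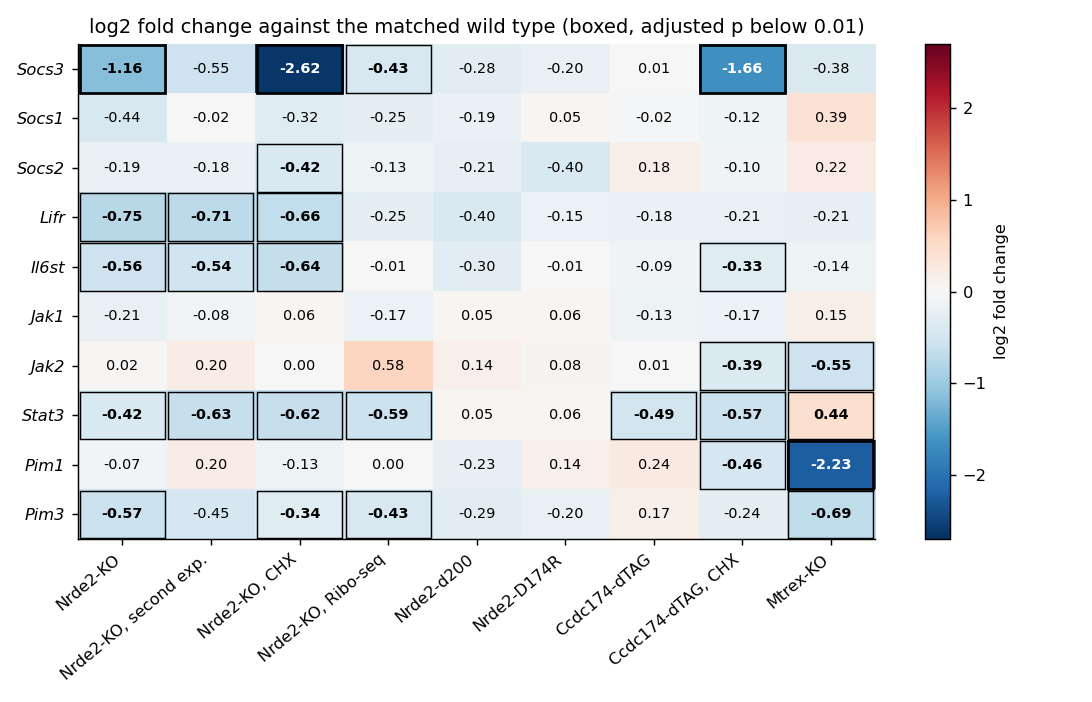
Log2 difference from the matching WT (number and colour of each cell) for the 10 genes (rows) in each genotype comparison (columns). Boxed values had an adjusted p below 0.01, and thicker boxes mark those that were also over 2-fold. Socs3 in Nrde2-KO with CHX (-2.62) and Pim1 in Mtrex-KO (-2.23) are the lowest values, and the Nrde2D174R column lies between -0.40 and 0.14.

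By CHX effect alone, over 2-fold and with an adjusted p below 0.01, 4 of the 10 genes were called in Nrde2-WT (Socs3, Lifr, Il6st, Jak2) and 4 in Ccdc174-WT (Socs3, Lifr, Il6st, Stat3), beside 14.1% and 15.3% of all genes. In Nrde2-KO and in Ccdc174-depleted cells 1 was called, Lifr, beside 13.9% and 14.5% of all genes. Il6st at 0.97 in Nrde2-KO and Socs3 at 0.97 in depleted cells lay just under 2-fold, so that 2 were called in Nrde2-KO without its CHX replicate 1 or untreated replicate 2, and 2 in depleted cells without CHX replicate 1 or untreated replicate 1. The counts ran from 3 to 4 in Nrde2-WT and from 3 to 5 in Ccdc174-WT when 1 library was left out. Since the genes were assembled around CHX effects, nothing is read from these counts.

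The AU-rich core ATTTA, a mark of short-lived mRNAs, was counted in the annotated 3′ untranslated regions. Pim3 held 5.19 per kb, Pim1 3.66, Jak1 3.55 and Socs3 2.71 (4 in all), Lifr, Socs2, Jak2 and Il6st held 1.60 to 1.74, Stat3 1.06 and Socs1 none, where the median of 19374 genes was 1.33. Whether these counts go with the CHX effects was not tested.

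Footprints relative to mRNA differed widely between the genes. In Nrde2-WT the ratio of footprint CPM to mRNA CPM was 1.12 for Socs1, 0.941 for Lifr, 0.918 for Stat3, 0.793 for Pim1, 0.734 for Il6st, 0.617 for Pim3, 0.517 for Socs3, 0.300 for Jak1, 0.121 for Socs2 and 0.118 for Jak2. Both assays were scaled separately, so that the size of a ratio carries no meaning by itself. Reads of mRNA cover untranslated regions as well, so the order of the genes is a description and not a ranking of translation. Socs1, Jak2 and Socs2 had the fewest footprints of the 10 genes, at 1.64, 2.38 and 3.89 CPM in Nrde2-WT. In Nrde2-KO the ratio was 0.860 for Socs3, 1.32 for Lifr and 1.06 for Il6st, against 0.806 for Stat3.

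Of 57 other genes of the pathway, 50 were tested without CHX. In Nrde2-KO 2 of them passed as higher and 7 as lower, beside 7.21% and 11.1% of all genes, with Lif, which encodes the ligand, higher by 1.00 (SE 0.19, limma adjusted p = 0.00076) and Stat2 lower (-1.02, SE 0.12, adjusted p = 5.8e-06). Lif was not called without Nrde2-WT replicate 2 (0.75, adjusted p = 0.022), and Stat2 fell short of 2-fold without Nrde2-KO replicate 2 (-0.88) or Nrde2-WT replicate 1 (-0.96). In the second experiment 1 passed as higher and 7 as lower, beside 7.1% and 11.4% of all genes, and none was over 2-fold (4.82% of all genes were). In Nrde2d200 2 passed as lower, beside 4.19% of all genes, and in Nrde2D174R none passed (0.41% of all genes did). With CHX, of 52 tested, 4 passed as higher and 12 as lower in Nrde2-KO, beside 10.8% and 17.4% of all genes. Lif was higher by 1.63 there and Osmr, the oncostatin M receptor chain that pairs with IL6ST, lower (-1.31, SE 0.22, adjusted p = 0.00089), the latter missing the threshold without KO replicate 2 (adjusted p = 0.0116).

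In Mtrex-KO 13 of the other pathway genes passed as higher and 11 as lower, beside 27.7% and 28.3% of all genes, led by Lif (2.78, SE 0.19, and 2.64 without Mtrex-KO replicate 1). In Ccdc174-depleted cells 2 passed as higher and 4 as lower, beside 1.04% and 4.53% of all genes, with Cebpb (1.28) and Jak3 (-1.06) over 2-fold. Cebpb missed the threshold without any one of the 4 libraries and Jak3 without depleted replicate 2 or WT replicate 1. With CHX 2 passed as higher and 8 as lower, beside 2.86% and 6.17% of all genes, none over 2-fold. In Ribo-seq, of 49 tested, 2 passed as higher and 10 as lower, beside 11% and 14.2% of all genes, led by Jak3 (-1.68) and Stat2 (-1.31). Among the CHX effects of these genes were those of Osmr (2.94, 1.60, 3.09 and 1.85 in Nrde2-WT, Nrde2-KO, Ccdc174-WT and depleted cells) and Junb, an immediate early gene (2.83, 2.79, 4.42 and 3.22), the largest 2 in every line but Nrde2-KO, where Pim2 at 1.88 lay above Osmr.

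Over the 14 RNA-seq groups, the mean log2 levels most like those of Socs3 among 15227 genes were those of Fgg (Pearson's r = 0.945), Adap2os (0.941), Sbno2 (0.906), Serpina3i (0.881) and Dnah17 (0.880). The groups share lines and control libraries and Socs3 itself set the order, so this is a description. Fgg, Adap2os and Serpina3i were at or under 0.79 CPM in all libraries without CHX. Serpina3i went from 0.23 and 0.33 CPM to 9.73 and 7.91 CPM with CHX in Nrde2-WT, was 1.14 and 1.30 CPM with CHX in Nrde2-KO, and with CHX was 11.3 and 16.1 CPM in Ccdc174-WT and 4.97 and 6.15 CPM in depleted cells. Its promoter window holds 1 match to TTCNNNGAA, while the windows of Fgg, Sbno2 and Dnah17 hold no match and Adap2os was not read. Sbno2, with at least 1253 reads in every RNA-seq library, had CHX effects of 0.73, -0.09, 0.96 and 0.26 on the log2 scale. Dnah17 lies on the same strand of chromosome 11 as Socs3, 51675 bases upstream of it (chr11:118021723-118130634), with CHX effects of 2.64, 1.17, 2.58 and 2.37.

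**Figure D5:**
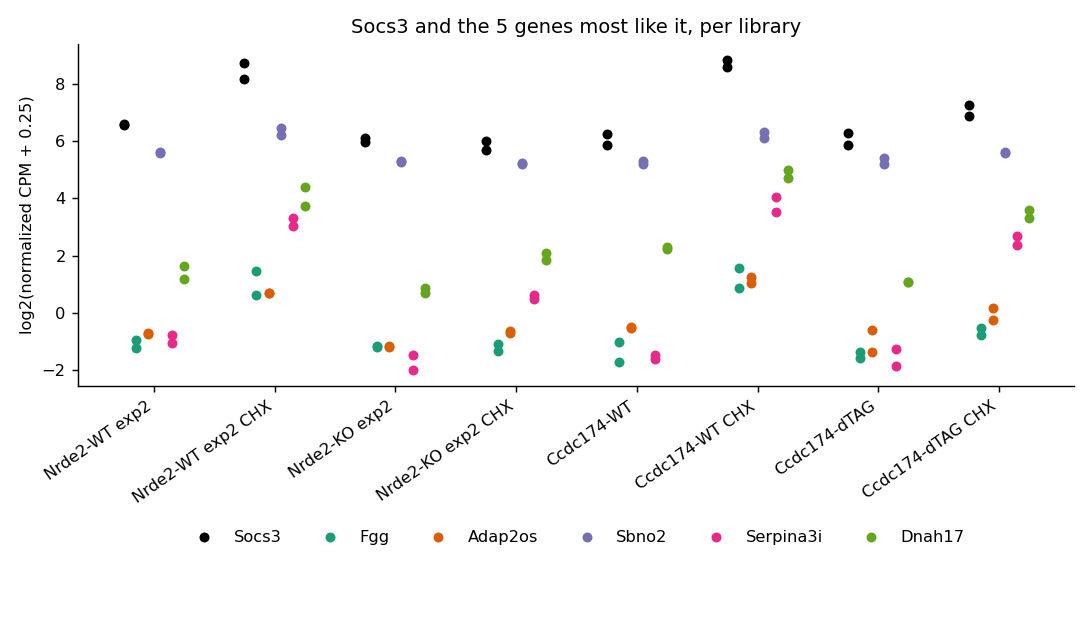
Log2 of normalized CPM plus 0.25 (y axis) in each library of the 8 groups with or without CHX (x axis) for Socs3 and the 5 genes most like it, with 2 points per gene and group. Each of the 6 genes is highest in Nrde2-WT and Ccdc174-WT with CHX.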

How the data were processed

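RNA-seq (rRNA-depleted, stranded, 28 libraries) and Ribo-seq (4 libraries) of mouse ES cells were analysed from tables of CPM per gene. Reads were mapped by the authors to mm10 (STAR 2.7.3a per the labels). They counted unique reads on the correct strand per gene with featureCounts, and deposited CPM, counts scaled to a library total that the sources used here do not name. Ribo-seq duplicates were collapsed by the authors. Whole reads could be recovered from 100% of values (within 0.1 of a whole number). Strand-specific counting keeps reads of genes on opposite strands apart.

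CPM were divided by median-of-ratios factors, and levels in the text are on this scale (over the 28 RNA-seq or the 4 Ribo-seq libraries), while each fit used the factors of its own libraries. Limma 3.58.1 (R 4.3.3, trend) was run on log2(CPM + 0.25) where a gene averaged 0.5 CPM or more, with Benjamini-Hochberg adjustment over all genes of a fit. A fold change on this scale understates the change of low genes. "Passed" means an adjusted p below 0.01, and "called" also a change over 2-fold. One fit each held the 20 RNA-seq libraries without CHX, the 8 with CHX, the 16 of both CHX experiments, the Ribo-seq libraries, and the Ribo-seq libraries with RNA-seq of the first Nrde2 experiment. Groups came from the labels, and the split of the Nrde2 libraries into a first and a second experiment was inferred from their wording. The sources used here do not say that RNA-seq and Ribo-seq duplicates came from separate cultures, so p-values measure only the spread between them, which may be technical. Replicates of every group differed by more than sampling noise.

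The members, the lists of pathway genes and markers, and the rule for named genes (the members, the targeted genes, the 2 most changed called pathway genes per comparison and the 5 genes most correlated with Socs3) were chosen with earlier results of these data known. Alternatives were the scaling (CPM as deposited, TMM), pseudocounts of 0.1 and 1, other filters, DESeq2 1.42.0 and edgeR 4.0.16 on the recovered reads, a replicate block, fits of the compared groups alone, the second Nrde2 experiment for Ribo-seq, and each library left out. The fits were tested on simulated data. Gene names, promoters and splice sites came from GENCODE M21 on GRCm38, which named 55154 of 55335 identifiers. BCLIP libraries were not analysed here. One of the pathway genes that the rule names and some promoter matches are not reported here.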

Additional observations from a re-analysis of the deposited data

Results flagged for a closer look

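The CHX effects of Socs3 were smaller in value after loss of either splicing factor. On the log2 scale the effect in Nrde2-KO minus that in Nrde2-WT was -2.07 (SE 0.27), and the effect in Ccdc174-depleted cells minus that in Ccdc174-WT was -1.67 (SE 0.27). When 1 library was left out they ran from -2.35 to -1.79 and from -1.89 to -1.46. Since the genes were put together around CHX effects, these are descriptions without a test.

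For Il6st the change of footprints in Nrde2-KO was smaller than that of mRNA by 0.56 on the log2 scale (SE 0.13; limma adjusted p = 0.0090), and over the alternatives the value ran from 0.44 to 0.69 and the adjusted p from 0.0037 to 0.0783.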

How the results depend on the processing

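The number of libraries, 2 per group, limits the precision. No called value changed sign. Of 227 single-gene values (members, targeted and named pathway genes), the side of the 2-fold call was kept by 213 on the CPM as deposited, 226 with DESeq2, 225 with edgeR, 226 with TMM, 219 with all genes kept, 220 with a pseudocount of 1 and all 227 with a pseudocount of 0.1, a minimum of 1 CPM or the replicate block; leaving out 1 library kept it in 1031 of 1068 cases, and a fit of the compared groups alone in 194 of 198. Members called in Nrde2-KO without CHX ranged from 0 to 1 when 1 library was left out, in the CHX effect of Nrde2-WT from 3 to 4, in that of Nrde2-KO from 1 to 2, in that of Ccdc174-WT from 3 to 5, in that of Ccdc174-depleted cells from 1 to 2, in the difference of CHX effects of the Ccdc174 line from 0 to 1, and in footprint minus mRNA change from 0 to 1. On the CPM as deposited 2 members were called in Mtrex-KO (Pim1 and Pim3, the latter at -1.07), and 4 in the CHX effect of both Nrde2-KO and Ccdc174-depleted cells. With all genes kept, 0 were called in Ccdc174-depleted against WT cells with CHX and in both differences of CHX effects, where the values were unchanged and more genes were tested; in the fit of the compared groups alone 0 were called in that of the Ccdc174 line. On the CPM as deposited the median of all genes moved to -0.38 in Mtrex-KO, by 0.20 to 0.24 in the CHX effects and by 0.15 in Ribo-seq, and the share of called genes that were higher moved from 57.7% to 34.1% in Mtrex-KO, from 74.7-82.3% to 88.1-92.2% in the CHX effects, from 56.4% to 75.5% in Ribo-seq and from 57.4% to 68.4% in Nrde2-KO; Socs3, Il6st and Lifr then passed as lower in Mtrex-KO. On that scale Stat3 missed the threshold in Nrde2-KO and in Ccdc174-depleted cells without CHX. Fits of the compared groups alone left Stat3 (adjusted p = 0.0418) and Jak2 (adjusted p = 0.012) in Mtrex-KO short of the threshold. Replicate numbers are not known to pair samples. The differences of replicate 1 from replicate 2 correlated between compared groups, over the genes of a fit, at -0.03 to 0.42. Between RNA-seq groups these correlations were 0.12 to 0.42, except -0.03 for Nrde2d200 against Nrde2-WT. With the replicate block no count of called members moved; 11 further member values passed at any size, among them Socs3 in Nrde2-KO of the second experiment (adjusted p = 0.000481) and Il6st no longer passed in footprint minus mRNA change. The causes of the other changes were not tested.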
